A study of Mus musculus with 6 samples.

Results

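The genes described here are the mouse zinc finger protein genes whose symbol is Zfp followed by digits only, measured in the cervical spinal cord of mice with an inflamed nape skin. They were chosen by symbol and by level, as the protein-coding genes with such a symbol and a mean of at least 1 FPKM over all 6 libraries, which gave 268 genes of the 54532 in the tables. FPKM, the deposited unit, is the number of fragments per kilobase of exon, scaled to library size. The mean over both groups was the measured value that selected the genes, so the levels themselves are a description. Of 374 genes with such a symbol, 365 are protein-coding. Among these, 69 were tested at a mean under 1 FPKM, and 28 were under 0.1 FPKM and were not tested, 11 of them listed at 0 in all libraries. Just inside the limit were Zfp969 at 1.003 FPKM, Zfp979 at 1.004 FPKM and Zfp26 at 1.019 FPKM. Just outside were Zfp974 at 0.988 FPKM, Zfp975 at 0.984 FPKM and Zfp677 at 0.973 FPKM. Of the 268 genes, 246 had at least 1 FPKM in every library. For 6 genes the mean was under 1 FPKM in ACD cords and at least 1 FPKM in Control cords, and for 0 genes it was the other way round.

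The series holds 6 C57BL/6 mice, 3 with allergic contact dermatitis (ACD) and 3 controls, and 1 RNA library of the cervical cord from each. ACD mice had 20 µl of 1% SADBE (squaric acid dibutylester, a contact allergen) in acetone put on shaved abdominal skin on 3 days, and 5 days after that 20 µl of 1% SADBE on shaved skin of the nape on 3 days. Control mice had acetone alone on the nape, and the labels leave it unclear whether their abdomen had also been treated with SADBE. The model is a local one, induced with a single chemical, and the labels give neither the age nor the sex of the mice. The comparison asked which transcripts of the cord segments that serve the nape differ when that skin is inflamed.

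C2H2 zinc finger proteins fold around zinc ions held by a pair of cysteines and a pair of histidines, and tandem arrays of such fingers read DNA sequence. Many of them in mammals also carry a KRAB box, which binds the co-repressor Trim28 (KAP1). Trim28 brings the histone methyltransferase Setdb1 and heterochromatin proteins to the bound site, a route best known for silencing transposable elements and for keeping imprinted genes methylated. A few genes named Zfp belong to other folds, such as Zfp36, whose CCCH fingers bind AU-rich mRNA and recruit the deadenylation machinery.

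The 5 sequences that follow are the 150 bases before the transcription start of Zfp950, Zfp101, Zfp445, Zfp317 and Zfp871, shown because these genes were lower in ACD cords and because each of the motifs searched occurs in at least 1 of them. The same stretch of Zfp28, Zfp641 and Zfp639 also holds a GC box and is not printed, since Zfp445, the most abundant of the genes lower in ACD, shows that motif. They are RefSeq sequences of build GRCm38.p6, read on the gene's strand from 5′ to 3′, and capitals mark the motif letters found.
Zfp950, chr19:61140841-61140990, minus strand: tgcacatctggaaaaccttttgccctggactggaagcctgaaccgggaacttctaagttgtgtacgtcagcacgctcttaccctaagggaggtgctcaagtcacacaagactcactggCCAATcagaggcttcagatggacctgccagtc
Zfp101, chr17:33394638-33394787, minus strand: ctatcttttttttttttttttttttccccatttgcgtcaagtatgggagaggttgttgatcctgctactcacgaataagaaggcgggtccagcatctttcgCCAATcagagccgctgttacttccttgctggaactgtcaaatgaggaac
Zfp445, chr9:122866007-122866156, minus strand: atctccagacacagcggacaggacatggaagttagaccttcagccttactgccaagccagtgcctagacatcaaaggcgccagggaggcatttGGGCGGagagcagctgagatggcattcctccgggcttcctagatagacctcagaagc
Zfp317, chr9:19621941-19622090, plus strand, the first of its annotated promoters: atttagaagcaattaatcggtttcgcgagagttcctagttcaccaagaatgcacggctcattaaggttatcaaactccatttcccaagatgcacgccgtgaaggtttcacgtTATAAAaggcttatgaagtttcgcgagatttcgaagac
Zfp871, chr17:32788288-32788437, minus strand, the first of its annotated promoters: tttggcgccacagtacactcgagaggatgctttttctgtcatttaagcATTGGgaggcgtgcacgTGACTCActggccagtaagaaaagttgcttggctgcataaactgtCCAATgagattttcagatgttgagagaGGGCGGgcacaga

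Promoter windows of 250 bases before to 50 after the start were matched for 224 of the 268 genes, with 273 windows in all, and for 9 of the 10 genes lower in ACD. The letters of each motif were searched on both strands. The CCAAT box (CCAAT), marked in the Zfp950, Zfp101 and Zfp871 sequences, was in 46.2% of the Zfp windows, in 54.8% of those of KRAB genes and in 37.4% of all 32851 promoter windows. The GC box (GGGCGG), marked in Zfp445 and Zfp871, was in 46.2% of Zfp windows, 35.5% of those of KRAB genes and 35.7% of all windows. The TATA box (TATAAA), marked in Zfp317, was in 7.33% of Zfp windows, 6.45% of those of KRAB genes and 13.6% of all windows. The AP-1 motif (TGANTCA), marked in Zfp871, was in 4.4% of Zfp windows, 3.87% of those of KRAB genes and 7.81% of all windows. The median number of CG dinucleotides in a window was 16 for Zfp genes and 7 for all promoters. Among the 11 windows of the genes lower in ACD, 5 held the GC box, 4 the CCAAT box, 2 the TATA box and 1 the AP-1 motif. A match says only that these letters are in the window.

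The denominators recovered from the FPKM steps overlapped between the groups. They were 17346315 to 20245576 reads in ACD libraries and 16916600 to 18583992 reads in Control libraries. The reads recovered for all genes did not sum to these denominators. Their sums were 1.068, 1.061 and 1.040 times the denominator in ACD 1 to 3 and 0.976, 1.018 and 1.027 times in Control 1 to 3. The part of this group difference in the FPKM values was not tested. Correlations across genes were 0.972 to 0.974 within ACD, 0.947 to 0.955 within Control and 0.944 to 0.956 between the groups. A Zfp gene had between 32.3 and 4329 reads per library on average, with a median of 273. Markers of central nervous tissue were high in all libraries, which does not by itself identify the spinal cord. The summed level of 5 neuronal markers was 532 to 562 FPKM in ACD and 468 to 524 FPKM in Control libraries. That of 4 oligodendrocyte markers was 5689 to 6779 FPKM in ACD and 3630 to 5646 FPKM in Control. The labels give no day of dissection, so handling of the groups cannot be told apart from the treatment.

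Zfp transcripts were mostly low in the cord. The median of the mean level was 3.20 FPKM, 205 of the 268 genes were under 5 FPKM and 14 reached 10 FPKM. The highest was Zfp706, which encodes a protein of only 76 residues, with 43.5, 40.6 and 40.9 FPKM in ACD and 35.5, 38.3 and 38.4 FPKM in Control. Every ACD value of Zfp706 lay above every Control value, and the difference did not pass the test (log2 fold change 0.16, adjusted p = 0.214). The next highest were Zfp365 and Zfp91, at means of 24.8 and 23.8 FPKM over all libraries.

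Most of the Zfp genes had a lower mean in ACD cords than in Control cords, by small amounts. The log2 fold change (ACD minus Control, on log2(FPKM + 0.1)) was below 0 for 197 of 268 genes (73.5%), with a median of -0.12 and quartiles of -0.26 and 0.01. For the other 11881 protein-coding genes at 1 FPKM or more, 39.8% were below 0 and the median was 0.05. Over all 21369 genes tested 51.4% were below 0 and the median was -0.01. The whole range among Zfp genes was -0.89 to 0.86, and 10 genes were at least 1.5-fold lower, 1 at least 1.5-fold higher and 0 at least 2-fold apart. The shares of all genes past these folds were not counted. These 10 are not the same genes as the 10 that passed the test below. Zfp979, Zfp26, Zfp971, Zfp969 and Zfp169 among them did not pass it. Zfp979, Zfp26, Zfp969 and Zfp28 had an ACD mean under 1 FPKM and entered the set through their Control values.

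In limma's test with Benjamini-Hochberg adjustment over all 21369 genes tested, at a threshold of 0.05, 10 of the 268 Zfp genes (3.73%) fell and 0 rose. Over all genes tested 2.53% fell and 1.81% rose (4.34% in either direction), and over the other protein-coding genes of this level 2.05% fell and 2.31% rose. The share that fell was thus near the background. For the Zfp genes 58 had an unadjusted p under 0.05 with lower values in ACD (21.6%) and 9 with higher values (3.36%). These shares were 11.8% and 10.5% over all genes, and 8.85% and 15.3% over the other protein-coding genes. All 3 ACD values lay below all 3 Control values for 75 Zfp genes (28.0%), against a background of 15.5% of all genes and 11.9% of the other protein-coding genes. All 3 lay above for 12 Zfp genes (4.48%), against 13.1% and 19.1%. Zfp genes tested at under 1 FPKM had a median log2 fold change of -0.15, and 0 of 69 passed the test. By limma 6 of those 69 had an unadjusted p under 0.05, all with lower values in ACD.

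Because log2 fold changes ran with exon length in these libraries, the Zfp genes were set beside other protein-coding genes within the quartiles of their own exon length, 67 Zfp genes in each. In the shortest quartile (1258 to 3270 bases) the median log2 fold change was -0.13 for Zfp genes and 0.13 for 3252 other genes, a difference of -0.26. In the second (3272 to 4614 bases) the medians were -0.14 for Zfp genes and 0.07 for 2420 other genes. In the third (4706 to 6732 bases) they were -0.12 and 0.03, with 2525 other genes. In the longest (6745 to 15839 bases) they were -0.12 and -0.04, with 2917 other genes, a difference of -0.08. The Zfp median thus kept nearly the same value at every length, while that of the other genes was lower in each longer quartile. The count of Zfp genes that fell was 1, 2, 3 and 4 from the shortest to the longest quartile, and in the longest this was 5.97% of Zfp genes and 3.91% of the other genes. No Zfp gene rose in any quartile, where 138, 55, 21 and 12 other genes did.

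**Figure D1:**
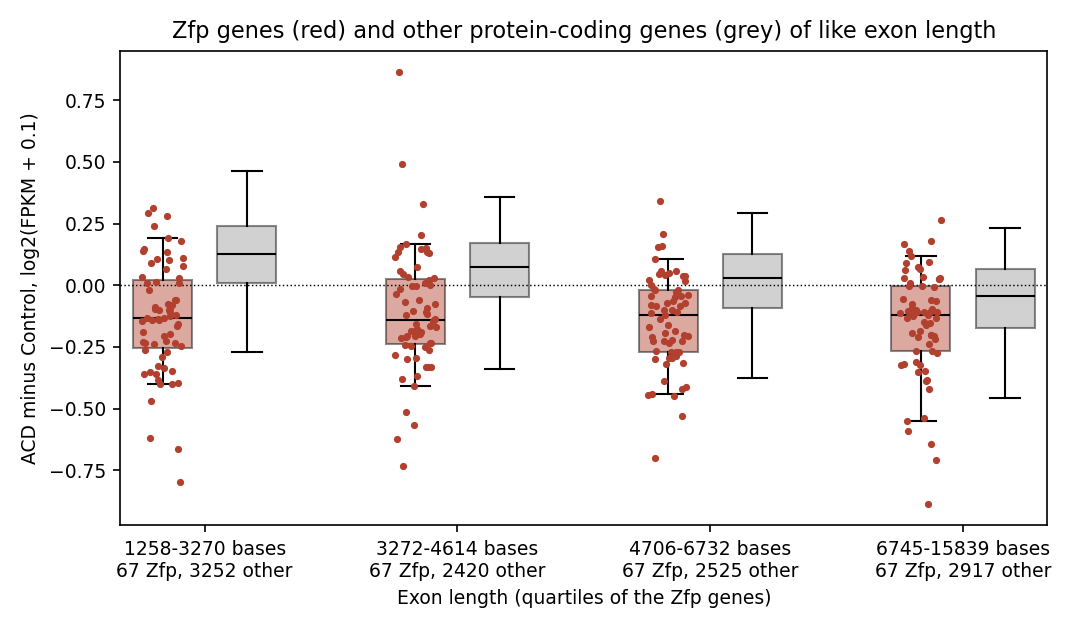
Log2 fold change (ACD minus Control, log2(FPKM + 0.1)) of Zfp genes (red, 1 point a gene) and other protein-coding genes (grey) in 4 quartiles of Zfp exon length; boxes give quartiles and median, whiskers the central 90% of genes. The Zfp median lies between -0.12 and -0.14 in every quartile, and the median of the other genes lies between 0.13 in the shortest and -0.04 in the longest.

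The Zfp genes were also set beside other genes of like mean level. At 1 to 2 FPKM the median log2 fold change was -0.16 for 69 Zfp genes and -0.06 for other protein-coding genes, and at 2 to 5 FPKM it was -0.14 for 136 Zfp genes and -0.03 for the others. At 5 to 10 FPKM it was -0.10 for 49 Zfp genes and 0.03 for the others, and at 10 FPKM or more it was -0.03 for 14 Zfp genes and 0.11 for the others. Both sets had higher medians at higher levels. When genes were split by quartiles of length and of level together, the Zfp median was the lower of the pair in 15 of 16 cells, and the differences ran from -0.33 to 0.05.

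The direction was shared by the libraries within each group. Relative to each gene's mean over the 6 libraries, the median deviation of the Zfp genes was -0.08, -0.04 and -0.07 in ACD 1 to 3 and 0.06, 0.07 and 0.05 in Control 1 to 3, on the log2 scale. Every ACD library lay below every Control library. For the other protein-coding genes the medians were 0.02, 0.02 and 0.03 in ACD and -0.02, -0.03 and -0.01 in Control. This is the opposite order on the FPKM scale, and it depends on the scaling: with TPM scaling the median log2 fold change was -0.22 for Zfp genes and -0.05 for the others, the same direction. No test is given for these medians, since the genes share the same 6 libraries.

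Proteins translated from the annotated coding sequences were searched for C2H2 fingers, counted as a pair of cysteines and a pair of histidines at the usual spacing, and for a KRAB box. Fingers were counted in the longest protein of a gene and the KRAB box was sought in all its proteins, so both need not lie in the same protein. The number of fingers had a median of 10 and a maximum of 36, in Zfp142, and the median protein length was 579.5 residues. Of the 268 genes, 149 had both fingers and a KRAB box, 113 had fingers and no KRAB box, and 6 matched no C2H2 pattern (Zfp36, Zfp330, Zfp365, Zfp503, Zfp703 and Zfp839).

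The genes with a KRAB box had the lower median, and the difference between the classes was not tested. Their median log2 fold change was -0.17, 81.9% were below 0, and 8 of 149 fell (5.37%, beside 2.53% of all genes tested), with 0 rises. Genes with fingers and no KRAB box had a median of -0.10, with 64.6% below 0 and 2 of 113 falling (1.77%). The 6 genes with no C2H2 pattern had a median of 0.07, and limma called 0 of them. Of these 6, 2 had an unadjusted p under 0.05 with higher values in ACD, beside 10.5% of all genes tested. The KRAB genes also had lower levels (median 2.48 FPKM, against 4.14 FPKM without KRAB), shorter exons (4209 against 5535 bases) and a lower GC content of the exons (42.5% against 49.7%), and the part of these in the difference was not tested. Within the shortest length quartile the medians were -0.14 for 46 KRAB genes and 0.08 for 21 genes without KRAB, and in the longest they were -0.22 for 27 and -0.11 for 40. In the third quartile the order was the other way, -0.12 for 36 KRAB genes and -0.17 for 29 without.

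**Figure D2:**
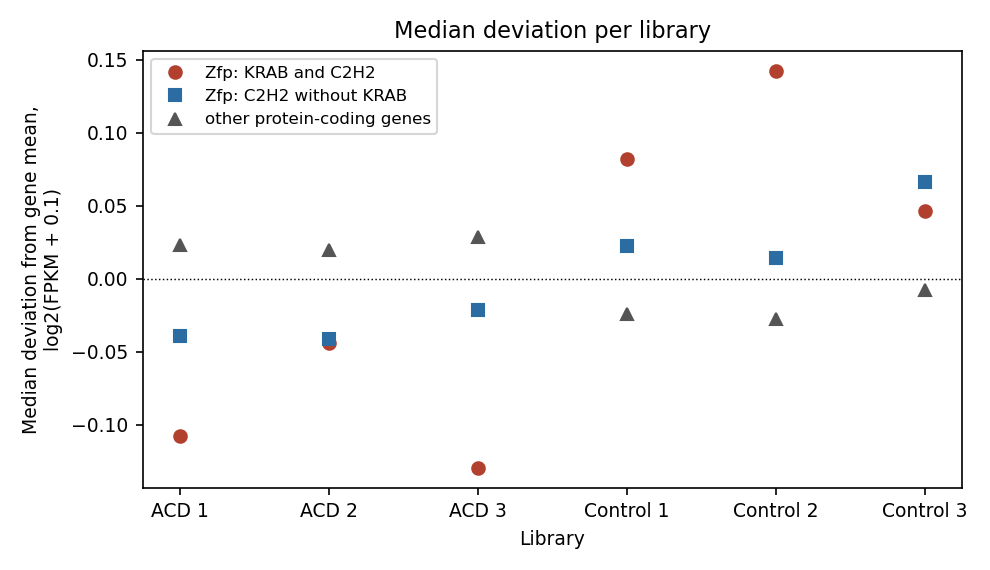
Median deviation from the gene mean, in log2(FPKM + 0.1), in each of the 6 libraries for Zfp genes with a KRAB box (red circles), Zfp genes with C2H2 fingers and no KRAB box (blue squares) and other protein-coding genes (grey triangles). KRAB genes lie at -0.11, -0.04 and -0.13 in ACD 1 to 3 and at 0.08, 0.14 and 0.05 in Control 1 to 3.

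The median also differed with the number of fingers. It was -0.06 for 57 genes with 1 to 6 fingers, -0.11 for 72 genes with 7 to 10, -0.18 for 80 genes with 11 to 14 and -0.23 for 53 genes with 15 to 36. In the last of these 84.9% of genes were below 0 and 3 fell. Among KRAB genes alone the medians were -0.11, -0.12, -0.14 and -0.24 in the same order, and among genes without KRAB they were -0.05, -0.00, -0.19 and -0.12. Genes with 15 or more fingers had a median exon GC content of 41.4% and those with 1 to 6 fingers 48.3%.

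**Figure D3:**
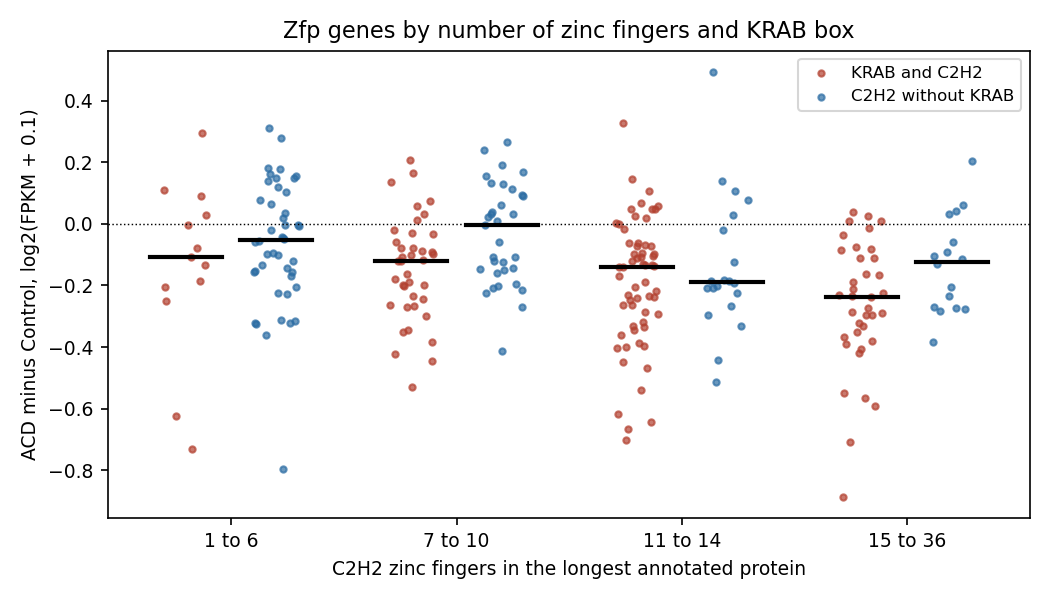
Log2 fold change (ACD minus Control, log2(FPKM + 0.1)) of Zfp genes by the number of C2H2 fingers, 1 point a gene, with a KRAB box (red) or without (blue); black lines are medians. The medians of KRAB genes run from -0.11 at 1 to 6 fingers to -0.24 at 15 or more.

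Zfp genes lie in clusters that share sequence, and reads of near-identical copies can be split between genes by the counting. For 62 genes at least 10% of the exon words of 31 bases also occurred in another gene's transcripts, and for 7 genes at least 50% did. The 206 genes under 10% had a median of -0.12 with 9 falling, and the 62 others a median of -0.13 with 1 falling (Zfp28). The genes lie on 20 chromosomes, with 69 on chromosome 7 and 34 on chromosome 17. The chromosome 17 genes had a median of -0.19, 91.2% of them were below 0 and 3 fell (Zfp40, Zfp101 and Zfp871), and the chromosome 7 genes had a median of -0.11 and 1 fell. The 110 genes whose next protein-coding gene is also one of the set had a median of -0.12 and the 158 that stand alone a median of -0.13. The longest such run is 8 genes on chromosome 7 (GRCm38, 29768552 to 29954089): Zfp84, Zfp30, Zfp790, Zfp940, Zfp420, Zfp27, Zfp383 and Zfp74. Their log2 fold changes lay between -0.27 for Zfp940 and 0.02 for Zfp30, whose sign changed under other scalings, and by limma none of the 8 passed the test or had an unadjusted p under 0.05.

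Among the 10 genes that fell, the best known is Zfp445, a KRAB protein with 12 fingers that keeps imprinted regions methylated together with Zfp57. It lies on chromosome 9 (GRCm38, 122844529 to 122866006, minus strand), and its promoter is the one shown above with a GC box. Zfp445 had 14.9, 15.3 and 14.2 FPKM in ACD cords and 21.8, 20.6 and 22.3 FPKM in Control cords. The groups were well apart, at 14.8 ± 0.534 FPKM in ACD and 21.6 ± 0.892 FPKM in Control (SD, n = 3 each), with a log2 fold change of -0.54 (SE 0.06, limma adjusted p = 0.0111). It was the most abundant of the 10, with about 2430 reads per library. Zfp57 itself, also a KRAB protein, was near the lower limit, with 1.08, 1.12 and 1.08 FPKM in ACD and 1.76, 1.08 and 1.20 FPKM in Control. Its groups overlapped and the difference did not pass (log2 fold change -0.25, adjusted p = 0.502).

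The lowest log2 fold change was that of Zfp950, a KRAB gene with 17 fingers on chromosome 19 (61053840 to 61140840, minus strand). Zfp950 had 1.73, 2.13 and 1.64 FPKM in ACD cords and 3.81, 3.26 and 3.31 FPKM in Control cords. The groups did not overlap, and the log2 fold change was -0.89 (SE 0.13, limma adjusted p = 0.0193). It overlaps Grk5 on the other strand. The sources used here do not say whether counting used strand, so reads of the pair cannot be told apart. The same limit holds for other genes, since 53 of the 268 Zfp genes overlap a tested gene on the other strand. Zfp36, Zfp143, Zfp335, Zfp346 and Zfp639 are among them.

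Zfp692 encodes a protein with 5 fingers and no KRAB box. Its human counterpart is known as a repressor that responds to the AMP-activated kinase. It had 6.87, 6.44 and 5.07 FPKM in ACD and 10.2, 10.9 and 10.8 FPKM in Control. ACD 3 was the lowest library, and every ACD value lay below every Control value (log2 fold change -0.80, SE 0.12, limma adjusted p = 0.0196). Zfp692 is short, with 1963 bases of exon, and lies on chromosome 11 (58307069 to 58314627, plus strand).

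Zfp28, a KRAB gene with 14 fingers on chromosome 7, had 0.915, 0.993 and 1.00 FPKM in ACD and 1.70, 1.49 and 1.73 FPKM in Control. Its log2 fold change was -0.70 (adjusted p = 0.0348), at a mean of 117 reads per library, and 22.3% of its exon words occur in other genes, so its counts are uncertain. It is also 1 of the 6 genes whose ACD mean was under 1 FPKM, so it entered the set through its Control values. Zfp101, with 12 fingers and a KRAB box, had 2.38, 2.47 and 1.96 FPKM in ACD and 3.27, 3.91 and 3.60 FPKM in Control, a log2 fold change of -0.64 (adjusted p = 0.0361). In both genes the groups were separate.

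Zfp641 had 1.99, 1.75 and 1.63 FPKM in ACD and 2.96, 2.89 and 2.58 FPKM in Control, with a log2 fold change of -0.62 and an adjusted p of 0.0344. Zfp40 had 1.84, 2.14 and 1.76 FPKM in ACD and 2.84, 2.95 and 2.81 FPKM in Control, with a log2 fold change of -0.56 and an adjusted p of 0.0371. Both encode KRAB proteins, with 5 fingers in Zfp641 and 16 in Zfp40. Zfp317, a KRAB gene with 13 fingers, had 4.45, 4.36 and 3.76 FPKM in ACD and 5.58, 5.78 and 5.85 FPKM in Control (log2 fold change -0.45, adjusted p = 0.0385).

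The last of the 10 changed least. Zfp639, which has 9 fingers and no KRAB box, had 3.52, 3.72 and 3.40 FPKM in ACD and 4.91, 4.59 and 4.73 FPKM in Control, a log2 fold change of -0.41 (adjusted p = 0.0360). It also overlaps a gene on the other strand. Zfp871, a KRAB gene with 15 fingers, had 7.46, 7.32 and 6.57 FPKM in ACD and 9.07, 8.86 and 9.36 FPKM in Control, a log2 fold change of -0.35 (adjusted p = 0.0485). Zfp871 no longer passed once a trend with exon length and GC was removed (-0.20, adjusted p = 0.139) or with a pseudocount of 1 FPKM (adjusted p = 0.0525). With no filter on low values only Zfp950, Zfp692 and Zfp445 of the 10 passed. In none of the 10 genes did an ACD value reach a Control value. When any 1 library was left out, between 1 and 2 of the 10 still passed; without ACD replicate 1 these were Zfp445 and Zfp692, without ACD replicate 3 only Zfp692 and without Control replicate 1 only Zfp445. Without ACD replicate 2, Control replicate 2 or Control replicate 3 they were Zfp445 and Zfp950.

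**Figure D4:**
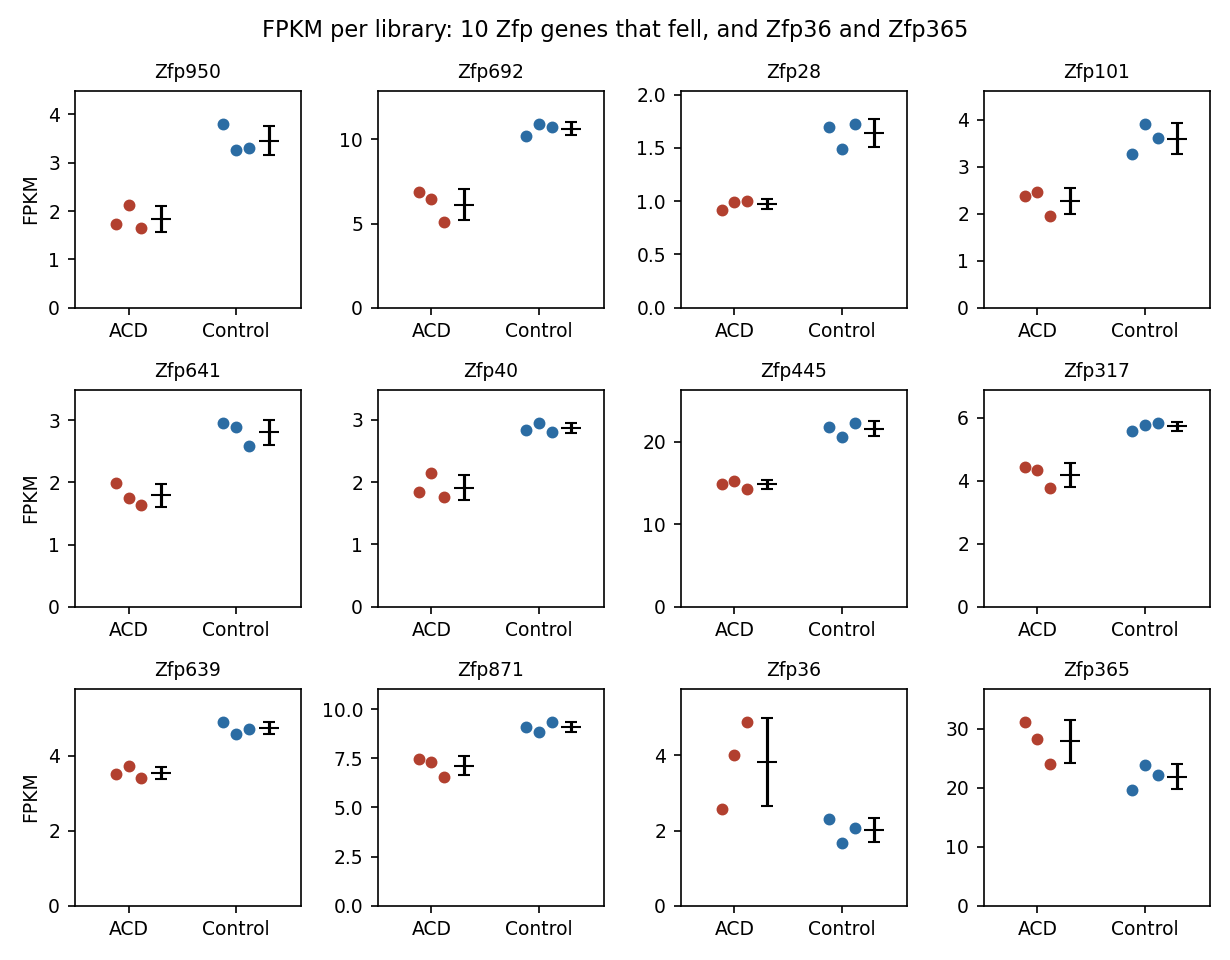
FPKM in each library (points, ACD red, Control blue) with the mean and SD of 3 libraries beside them, for the 10 Zfp genes that fell, in order of log2 fold change, and for Zfp36 and Zfp365, which did not pass the test. For the 10 genes every ACD point lies below every Control point, and for Zfp36 and Zfp365 above.

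The highest log2 fold change in the set was that of Zfp36, the CCCH protein tristetraprolin, which marks mRNAs of cytokines such as Tnf for decay. Zfp36 had 2.58, 4.0 and 4.90 FPKM in ACD and 2.30, 1.66 and 2.06 FPKM in Control. The ACD libraries were all above the Control libraries and varied widely among themselves, and the difference did not pass (log2 fold change 0.86, SE 0.24, limma adjusted p = 0.0905). Without ACD replicate 1, which held its lowest ACD value, Zfp36 passed, at 1.12 with a limma adjusted p of 0.0490. It did not pass when any other library was left out. It also passed when reads recovered from the FPKM were fitted with voom (adjusted p = 0.0414), where 3.28% of all genes rose and 4.63% fell. Its relatives Zfp36l1 and Zfp36l2 had log2 fold changes of 0.16 and 0.02. A list of 15 tested genes held the CCR4-NOT deadenylase and the Zfp36 family, with Dusp1 and Mapkapk2, a kinase that phosphorylates Zfp36, added to it. In this list limma called 0 in either direction, and the median was 0.00. At an unadjusted p under 0.05 it had 3 genes with higher values in ACD, Dusp1, Mapkapk2 and Cnot8, and 3 with lower values, Cnot6, Cnot10 and Cnot6l. These were 20.0% of the list in each direction, beside 10.5% higher and 11.8% lower over all genes tested. The smallest p among them was that of Dusp1, an immediate early phosphatase and a known tristetraprolin target, with 12.9, 14.8 and 19.8 FPKM in ACD and 10.2, 6.98 and 8.87 FPKM in Control (log2 fold change 0.85, adjusted p = 0.0536).

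Genes with a known part in neurons and glia did not pass the test. Zfp365, which binds Disc1 and acts in neuronal process growth and in oligodendrocyte differentiation, had 31.2, 28.2 and 24.1 FPKM in ACD and 19.7, 23.7 and 22.2 FPKM in Control, without overlap (log2 fold change 0.34, adjusted p = 0.137). Zfp536, a repressor of neuronal differentiation, had 4.39, 4.42 and 5.28 FPKM in ACD and 4.14, 3.79 and 3.72 FPKM in Control (0.26, adjusted p = 0.182). Zfp488, a factor of oligodendrocytes, and Zfp24, which mice need for myelination, had log2 fold changes of 0.15 and -0.02, with overlapping groups. Zfp106, an RNA-binding protein whose loss causes motor neuron degeneration in mice, was at 21.6 ± 0.558 FPKM in ACD and 21.8 ± 0.485 FPKM in Control (SD, n = 3 each). Zfp521 and Zfp423, paralogs with 27 fingers each, had 0.03 and 0.04, and Zfp503, a factor of striatal development, had 0.01. The sign of these small values changed under another scaling, or with a trend on length and GC removed, for Zfp24, Zfp106, Zfp423, Zfp503 and Zfp521.

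Among genes of chromatin and DNA binding, Zfp462, a 33-finger protein that protects heterochromatin, had 4.06, 3.89 and 4.07 FPKM in ACD and 5.44, 4.53 and 5.92 FPKM in Control. The groups were separate, with a log2 fold change of -0.38 and a limma adjusted p of 0.0961. Zfp462 passed without Control replicate 2 (limma adjusted p = 0.0446), which held its Control value nearest to the ACD values. Zfp711, linked in humans to X-linked intellectual disability, had 2.61, 2.77 and 2.83 FPKM in ACD and 3.17, 3.58 and 3.40 FPKM in Control (log2 fold change -0.30, adjusted p = 0.112). Zfp809, the KRAB protein that silences murine retroviruses at their primer binding site, had -0.09 with overlapping groups. Zfp143, a transcription factor also called Staf, had -0.15, Zfp148 -0.13, Zfp281 -0.17, Zfp292 -0.18 and Zfp335 -0.20, with adjusted p between 0.316 and 0.544. Of these the groups did not overlap in Zfp148, at 5.53 ± 0.128 FPKM in ACD and 6.08 ± 0.332 FPKM in Control (SD, n = 3 each).

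Among genes of signalling and RNA handling, Zfp207, a spindle protein that also affects splicing, had 10.7, 12.3 and 10.4 FPKM in ACD and 12.9, 13.5 and 12.5 FPKM in Control (log2 fold change -0.22, adjusted p = 0.170). Zfp326, which couples elongation and splicing, had 3.06, 3.29 and 2.41 FPKM in ACD and 3.69, 3.78 and 3.47 FPKM in Control (-0.32, adjusted p = 0.197). Neither pair of groups overlapped. Zfp110 and Zfp369, which bind the neurotrophin receptor Ngfr, had -0.20 and -0.08. Zfp598, a ubiquitin ligase of collided ribosomes, had -0.16, Zfp638 had -0.10 and the ubiquitin ligase Zfp91 had -0.05. Zfp622, a factor of large ribosomal subunit maturation, had 0.18 without overlap of the groups (adjusted p = 0.239), and Zfp346, which binds double-stranded RNA, had 0.04. The sign changed under another scaling or with the trend removed for Zfp91, Zfp148, Zfp346, Zfp369 and Zfp638. Of the genes named for a known role, Zfp445 alone passed the test.

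The partners of KRAB proteins showed no change that passed. Of 19 KRAB co-repressor genes limma called 0, with 3 (15.8%) at an unadjusted p under 0.05 in each direction, and the median log2 fold change was -0.01. Over all genes tested 11.8% had an unadjusted limma p under 0.05 with lower values in ACD and 10.5% with higher values. Trim28 itself had 0.13 (adjusted p = 0.429) and Setdb1 -0.22 (adjusted p = 0.161). The smallest p was that of Atrx, a chromatin remodeler of heterochromatin, with 4.77, 5.07 and 5.07 FPKM in ACD and 6.43, 6.44 and 5.93 FPKM in Control (-0.33, adjusted p = 0.0546). A list for HUSH silencing held 5 tested genes, Setdb1, Morc2a, Zfp638, Pphln1 and Mphosph8, of which limma called 0, with a median of -0.10. The 1 with an unadjusted p under 0.05 was Setdb1, which is also counted among the co-repressor genes. Of 13 genes of the NuRD deacetylase complex limma called 0, with 2 at an unadjusted p under 0.05, and the median was 0.06. Mbd3, the smallest p there, was at 62.7 ± 2.19 FPKM in ACD and 50.2 ± 3.72 FPKM in Control (SD, n = 3 each), with a log2 fold change of 0.32 and an adjusted p of 0.0581.

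Other lists of zinc finger genes gave medians below 0 as well, and no gene in them passed the test as higher. Of 34 Zbtb genes 3 fell, with a median of -0.09: Zbtb20 at -0.51, Zbtb25 at -0.49 and Zbtb37 at -0.70. The highest was Zbtb16 at 1.22, which did not pass. Of 20 Zscan and Zkscan genes 1 fell, with a median of -0.14. This was Zkscan2, with 0.982, 1.35 and 1.11 FPKM in ACD and 2.30, 2.40 and 2.64 FPKM in Control (log2 fold change -1.04, adjusted p = 0.0169). Of 22 Klf and Sp genes 2 fell, Sp4 at -0.63 and Klf7 at -0.49, with a median of -0.16. By limma 4 (18.2%) had an unadjusted p under 0.05 with lower values in ACD and 2 (9.09%) with higher values, beside 11.8% and 10.5% of all genes tested. Those higher were Klf4 at 0.72 and Klf2 at 0.75. Of 28 Zfp genes with letters after the digits 3 fell, Zfp512b at -0.62, Zfp280c at -0.77 and Zfp354c at -0.31, with a median of -0.18. These 28 include Zfp36l1 and Zfp36l2, the relatives of Zfp36 counted above. Of all 55 protein-coding genes outside the set with a KRAB hit and a mean of at least 1 FPKM 5 fell, with a median of -0.22. These 55 were not kept apart from the lists just given, so a gene can be counted in both. The background for falls was the 2.53% of all genes given above, and none of these lists was tested as a list.

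Other measures moved with the groups, and their part in the Zfp values was not tested. The summed level of 9 nuclear long non-coding RNAs was 117.5, 156.8 and 114.9 FPKM in ACD and 413.5, 403.0 and 364.9 FPKM in Control. Of the 8 tested 6 fell, Malat1 by 2.33 and Meg3 by 1.70 on the log2 scale. Long non-coding genes at 1 FPKM or more had a median log2 fold change of -0.15, with 59 of 614 falling and 3 rising. Schwann cell markers summed to 446.3, 311.5 and 341.0 FPKM in ACD and 201.7, 227.0 and 143.3 FPKM in Control, all 3 genes at higher means in ACD. Red blood cell markers summed to 481, 772 and 557 FPKM in ACD and 100, 280 and 389 FPKM in Control. No gene of that list passed, and Hba-a2 had a lower mean in ACD (log2 fold change -0.24) while the others had higher means. Astrocyte markers summed to 936.4, 867.7 and 926.6 FPKM in ACD and 662.0, 781.7 and 723.0 FPKM in Control. Gfap alone of them rose (log2 fold change 0.48, limma adjusted p = 0.0332). Aqp4, Aldh1l1 and Slc1a2 were at 0.31, 0.26 and -0.05 and did not pass. Microglia markers summed to 48.4, 52.0 and 47.5 FPKM in ACD and 37.62, 45.7 and 42.01 FPKM in Control. Tmem119 alone of them rose (0.53, limma adjusted p = 0.0394). Csf1r, Cx3cr1 and P2ry12 were at 0.27, 0.15 and 0.03 and did not pass. All 4 neutrophil markers had higher means in ACD, with a median log2 fold change of 1.26, and their sums overlapped, at 98.96, 90.07 and 117.5 FPKM in ACD and 24.5, 102.4 and 23.5 FPKM in Control. Muscle markers summed to less in every ACD library than in every Control library, at 0.994, 1.03 and 0.628 FPKM in ACD and 2.43, 10.4 and 1.52 FPKM in Control. The neuronal and oligodendrocyte sums given above were also higher in every ACD library than in every Control library, by narrow margins. The lowest ACD and highest Control sums were 532 and 524 FPKM for neuronal and 5689 and 5646 FPKM for oligodendrocyte markers. No gene of either list passed the test. The summed FPKM of all genes was 297034.6 to 313140.3 in ACD and 279995.8 to 299956.3 in Control libraries, and the marker sums were not rescaled to it. Every ACD library had fewer genes above 0 FPKM than every Control library. The counts were 23561, 24194 and 23511 genes in ACD and 25370, 25870 and 24982 genes in Control. Sums of motor neuron, endothelium, ependyma and skin markers overlapped. None of the genes in these marker lists was at 0 in all libraries. In RNA of whole tissue, fewer cells that express a gene and less of its RNA per cell cannot be told apart.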

How the data were processed

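The authors deposited 1 table of FPKM per library, the only unit used; per the submitters' processing notes the tools were DESeq2 1.16.1, featureCounts 1.5.0-p3 and HISAT2 2.0.5, on build mm10. No kit, strand setting or annotation release is given in the sources used here. Groups came from the sample descriptions. Gene types, exons and coordinates came from GENCODE M21 on GRCm38 (mm10), which holds 54495 of the 54532 identifiers; symbols were matched for 54409.

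limma 3.58.1 in R 4.3.3 (lmFit, eBayes with trend and robust settings) was run on log2(FPKM + 0.1); a mean of 0.1 FPKM or more was required, which left 21369 genes, with Benjamini-Hochberg adjustment and a threshold of 0.05. Adjusted p-values are from this fit unless another is named. On that scale the fold change of a low gene is understated. Whole reads were recovered for 96.7% to 97.0% of values (within 0.05) from the FPKM, the exon length and 1 denominator for each library. The denominators are known from these steps, and voom on those reads was an alternative. The labels call the 3 libraries of a group biological replicates; their shared numbers did not pair the libraries (correlations of -0.028, 0.015 and 0.003).

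The plan named RefSeq proteins for counting fingers. Translated GENCODE M21 coding sequences were used in their place, with fingers counted in the 1 longest protein of a gene. KRAB boxes were found in any annotated protein of a gene with a profile (pyhmmer 0.12.3, E-value 0.0001) built from 226 windows. Words of 31 bases shared with other genes' transcripts marked near-identical copies. The Zfp genes, lists and tests were chosen with earlier results of these data known, so no list was tested. Genes named were those past the threshold, a list of genes with a known role, the 3 highest and 3 lowest and the 3 just under the limit. The longest run of neighbours and the leading genes of other lists were also named. Zfp142, Zfp169, Zfp971 and the genes with no C2H2 pattern were named after their values were seen.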

Additional observations from a re-analysis of the deposited data

How the results depend on the processing

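All 10 Zfp genes that fell kept their direction under every alternative. As given in the report, 386 genes rose and 541 fell over all genes, and 0 and 10 of the Zfp genes. With a pseudocount of 1 FPKM the Zfp median was -0.10, and the difference from other genes was -0.22 and -0.17 in the shortest and second length quartile. With no filter on low values 221 genes rose and 335 fell, 3 of them Zfp genes. With TPM scaling 208 rose and 704 fell, 16 of them Zfp genes, and the medians were -0.22 for Zfp genes and -0.05 for the others. With equal protein-coding medians the Zfp median was -0.14. After removal of a smooth trend with length and GC 244 genes rose and 688 fell, 10 of them Zfp genes, and the difference in the shortest quartile was -0.20. With voom on recovered reads 701 genes rose and 989 fell (3.28% and 4.63%), among them 1 Zfp gene that rose (Zfp36) and 19 that fell. Among genes of like length and like level the differences were -0.22, -0.17 and -0.040 in the shortest, second and longest quartile. With the replicate number as a block 86 genes rose and 95 fell, 0 of them Zfp genes (adjusted p of the 10 genes between 0.0553 and 0.116); samples shared no more than a number. Leaving out 1 library at a time, 63 to 314 genes rose and 117 to 313 fell, 0 to 1 of the Zfp genes rose and 1 to 3 fell, the Zfp median was -0.15 to -0.12, and the difference was -0.29 to -0.21, -0.23 to -0.19, -0.19 to -0.13 and -0.093 to -0.077 from the shortest to the longest quartile. The causes of these changes were not tested. Signs changed for genes near 0. With TPM scaling the log2 fold change was -0.065 for Zfp521, -0.060 for Zfp346, -0.054 for Zfp423, -0.084 for Zfp503 and -0.074 for Zfp30. With equal medians it was -0.011 for Zfp503 and -0.0019 for Zfp30. With the trend removed it was 0.066 for Zfp106, 0.036 for Zfp24, 0.010 for Zfp369, 0.0037 for Zfp91, 0.0064 for Zfp148, 0.10 for Zfp638, -0.016 for Zfp503, -0.035 for Zfp346 and -0.00028 for Zfp30. Leaving out a library, it ran from -0.029 to 0.0056 for Zfp106, -0.12 to 0.078 for Zfp24, -0.018 to 0.11 for Zfp521, -0.044 to 0.092 for Zfp423, -0.057 to 0.062 for Zfp503, -0.092 to 0.014 for Zfp91 and -0.091 to 0.13 for Zfp30. Reads per gene, 32.3 at the fewest, limit the precision of the lowest genes.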
